A study of Mus musculus with 435 samples.

Results

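The comparison set livers of C57 mice kept on a high-fat diet for 9, 10 or 11 weeks against livers of C57 mice on the same diet for 1 or 3 weeks. Arrays were chosen by their labels alone, which gave 48 of the 435 arrays of the series. There were 28 late arrays (8 of week 9, 10 of week 10 and 10 of week 11) and 20 early arrays (10 of week 1 and 10 of week 3). Each array carried Cy5-labelled total RNA of a liver beside a Cy3-labelled pool of RNA from 10 tissues of C57 mice, liver among them. The values set beside it came from C57 mice on a low-fat diet (29 late and 20 early arrays), A/J mice on the high-fat diet (30 late and 20 early, of which 1 duplicated column was left out) and A/J mice on the low-fat diet (49 in all), at the same weeks. The labels give neither the composition of the diets nor the age or sex of the mice, they do not say which arrays share a mouse, and they name no hybridisation batch. Weeks on the diet, age and any batch that went with the week therefore cannot be told apart, and p-values measure the spread between week groups of arrays.

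The liver takes up fatty acids from the blood and builds others from acetyl-CoA. It lengthens and desaturates them with the elongase and desaturase enzymes, links them into triglyceride for storage or export in lipoproteins, and burns them in mitochondria and peroxisomes. Fat feeding is known to act on these routes through nuclear receptors such as Ppara and through the SREBP factors, while in a growing mouse the liver also loses fetal genes and slows its cell division.

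Values are log2 ratios of liver over the reference pool, with the median of each array set to 0. A positive value thus stands for more RNA in that liver than in the pool, relative to the typical probe. The unit compared was the mean of a week group. Late minus early is the mean of the 3 late weeks minus the mean of the 2 early weeks, tested in limma across all probes with Benjamini-Hochberg adjustment and a threshold of 0.05. Because liver pieces were measured whole, fewer cells of a type and less RNA per cell cannot be told apart.

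Between the early and late weeks, the fatty acid elongase gene Elovl5 rose 3.91-fold, the epithelial keratin gene Krt8 rose 3.90-fold and the thioredoxin gene Txn1 rose 3.11-fold. The glypican gene Gpc3, abundant in fetal liver, fell by 1.16 on the log2 scale, and the acyl-CoA dehydrogenase gene Acads fell by 1.14. The late minus early differences of C57 mice on the low-fat diet ran in the same direction for all 345 called probes that were tested there. The share with the same direction was 81.4% of all 8317 probes tested in both. The difference between the diets was past the threshold for no probe, in a fit whose p-values for this difference are likely too large.

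In all, 351 of 8611 probes, or 4.08%, passed the threshold. They represented 349 genes. Of these probes 160 (1.86%) were higher and 191 (2.22%) lower in the late weeks, by 1.45-fold to 11.7-fold and by 1.46-fold to 8.49-fold. Before adjustment, p was under 0.05 for 1886 probes, and the median difference over all probes was -0.03. The spread in this limma fit was estimated from the 20 week means of both strains and diets. Deviations of the same week correlated across strains and diets by 0.0858 to 0.70. The p-values of this fit for late minus early are therefore too small by an unknown amount. Estimated from the 5 week means of C57 mice on the high-fat diet alone, 5 probes (0.0581%) passed in limma (1928 before adjustment), and 271 of the 351 had an adjusted p under 0.10. The count was 10 without week 1, 113 without week 3, 574 without week 9, 0 without week 10 (with 1375 at an unadjusted p under 0.05) and 200 without week 11.

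The 5 probes that passed with the week means of this group alone were 4 that were higher (0.0465% of all tested), those of Prr23a3, Zfp131, Odf2 and Wbp11, and 1 that was lower (0.0116%), a probe of Arfgap3. They are named because the count is small, after their values were seen. The Arfgap3 gene, of a protein of the Golgi, had a second probe, measured on more arrays, that did not pass (-0.81 against -1.78). In the late week means of 3648 probes (42.4%) there was no overlap with the early ones, and this was so for all 351 called probes.

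Among the 12 genes with the largest rises, Wbp11, whose protein binds splicing factors, stood first. Its log2 ratio ran from -0.56 to 3.56 with a median of 1.20 in 27 late arrays, against -5.33 to -0.44 with a median of -1.94 in 10 early arrays. The week means were 0.99, 1.53 and 1.27 at weeks 9, 10 and 11, against -2.91 and -1.67 at weeks 1 and 3. All but 1 of these late arrays lay above every early array, and the difference was 3.55 ± 0.51 (SE, limma adjusted p = 0.0051). In Prr23a3, a gene of the proline-rich 23 family, 28 late arrays ran from 0.68 to 3.05 with a median of 1.98, against -2.86 to 0.52 with a median of -0.56 in 11 early arrays. All 28 late arrays were above every early one (2.70 ± 0.39, limma adjusted p = 0.0051).

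Krt8 encodes a keratin of hepatocytes and bile duct cells. In the list of 5 bile duct markers it was the only one called, and the other 4 (Krt19, Sox9, Krt7 and Krt18) stood at 0.31, -0.16, -0.33 and -0.37. In 24 late arrays Krt8 ran from -1.51 to 2.32 with a median of 0.58, against -4.38 to 0.46 with a median of -1.10 in 18 early arrays. Here 13 late arrays lay above all early ones, and the difference was 1.96 ± 0.32 (limma adjusted p = 0.0051). Txn1, a redox protein of the cytosol, ran from -2.51 to 2.52 with a median of 0.35 in 24 late arrays, against -3.25 to -0.39 with a median of -1.55 in 20 early arrays. Its week 11 mean (-0.39) was lower than those of week 9 (0.33) and week 10 (0.50), while weeks 1 and 3 stood at -1.68 and -1.31.

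The other large rises were in Zfp131 (2.50), a zinc finger gene, Ipmk (2.43), an inositol phosphate kinase gene, Odf2 (2.05), of the sperm tail and centriole, and Elovl5 (1.97). They were followed by the lysosomal protease gene Lgmn (1.92), the prion protein gene Prnp (1.87), Bnip3 (1.83), whose protein acts in the removal of mitochondria, and the matrix gene Col6a2 (1.74). Limma adjusted p for the 12 ran from 0.0051 to 0.0279. Of 28 late arrays 21 to 28 gave a value for these genes, against 10 to 20 of 20 early arrays, and the measured share was lower early for 8 of the 12 and lower late for Txn1, Elovl5, Col6a2 and Krt8. Over all 160 probes that were higher, the shares of arrays with a value were 89.96% late and 89.6% early. Across all probes tested they were 86.7% late and 94.7% early. In Col6a2 none of 23 late arrays lay above the highest early one (0.95, week 1), but 19 lay above the next highest (-0.88). In Zfp131 3 of 27 late arrays lay above all 14 early ones, and 25 lay above all but the 2 highest, which stood at 2.31 and 1.47.

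**Figure D1:**
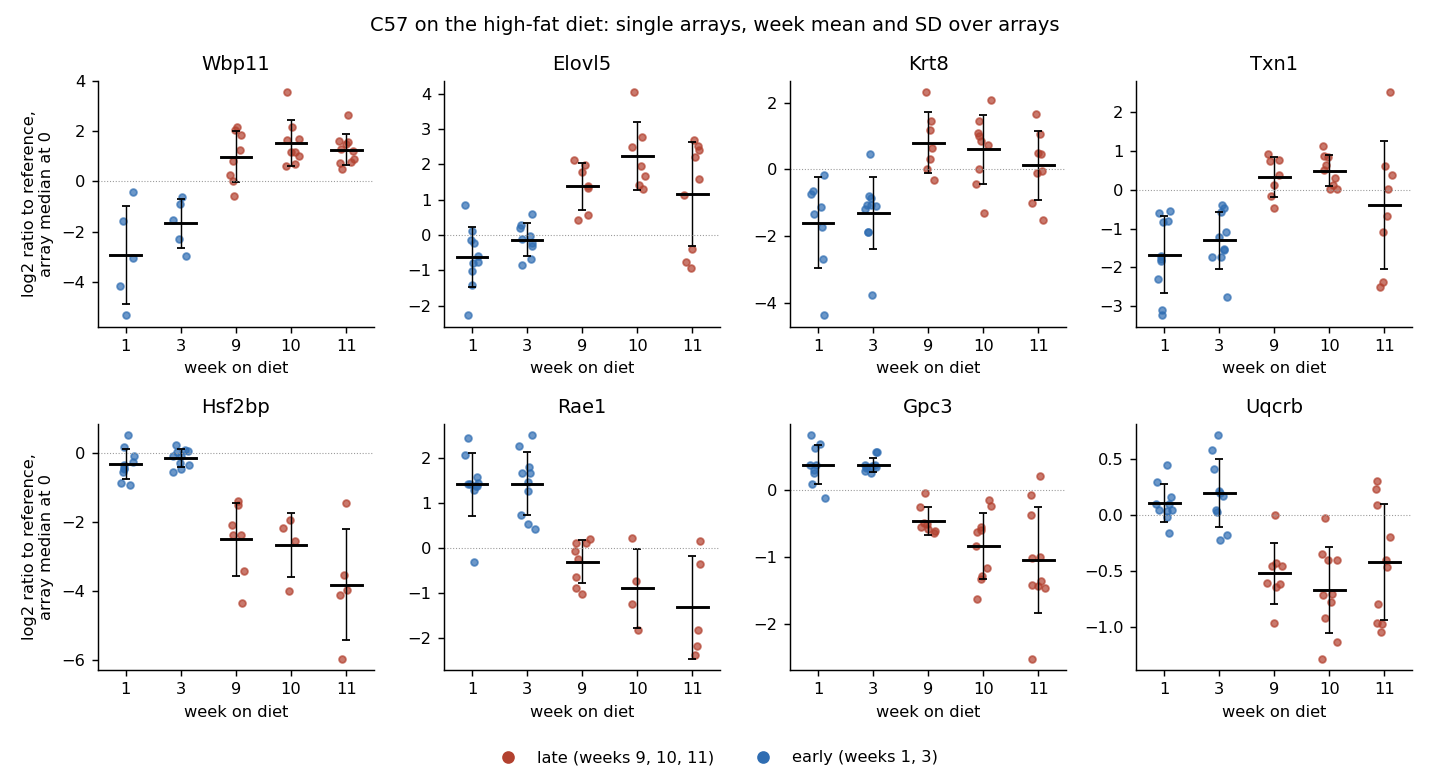
Log2 ratio of liver over reference (y axis, array median at 0) by week on the high-fat diet (x axis) in C57 mice, for 4 genes that rose and 4 that fell. Points are single arrays, bars the week mean and whiskers the SD over arrays. The late points of Wbp11 (27 arrays, median 1.20) lie above the 10 early ones with 1 exception, and all 16 late points of Hsf2bp lie below the 20 early ones.

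Among the 12 largest falls, Hsf2bp, a gene of meiotic recombination, had the clearest separation of arrays. Its log2 ratio ran from -5.96 to -1.41 with a median of -2.47 in 16 late arrays, against -0.94 to 0.49 with a median of -0.29 in 20 early arrays. All 16 late arrays were lower than every early array, and the difference was -2.76 ± 0.43 (limma adjusted p = 0.0051). Lrrc74b, a leucine-rich repeat gene, had the largest value (-3.09 ± 0.64, limma adjusted p = 0.0186). Its week means were 0.32, -1.37 and -2.04 at weeks 9, 10 and 11, against 2.29 and 1.82 at weeks 1 and 3, so that week 9 stood between the others.

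Rae1, which acts in the export of mRNA from the nucleus, ran from -2.38 to 0.23 with a median of -0.65 in 17 late arrays, against -0.31 to 2.50 with a median of 1.43 in 20 early arrays. The groups overlapped only through 1 early array, at -0.31, since the next lowest stood at 1.28 in week 1 and all but that one were above 0.23. The remaining falls were in 3110040N11Rik (-1.82), Tmem177 (-1.69), Mettl27 (-1.66), Serpinb7 (-1.64), Scn10a (-1.60), Cenpw (-1.58), Camsap2 (-1.52), Rpp30 (-1.51) and Cbln1 (-1.51). They encode proteins of unlike roles, such as a sodium channel of sensory neurons (Scn10a), a centromere protein (Cenpw) and a subunit of ribonuclease P (Rpp30). Limma adjusted p ran from 0.0051 to 0.0487 for the 12. For these genes 16 to 24 of 28 late arrays gave a value, against 18 to 20 of 20 early arrays, and over all 191 probes that were lower the shares were 88.2% and 97.6%, beside 86.7% and 94.7% over all probes tested.

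In the weeks between, which took no part in choosing the genes, most called probes stood on the early side at week 4 and on the late side at weeks 5, 6 and 7. At week 4, 29 of 143 called rises (20.3%) and 14 of 189 called falls (7.41%) were nearer the late than the early mean, against 34.1% of all tested probes. At week 5 these were 145 of 153 (94.8%) and 168 of 182 (92.3%), against 66.8% of all tested probes. At week 6 the shares were 85.2% and 71.3%, and at week 7 93.8% and 86.4%, with 60.1% and 63.7% of all tested probes. Week 8 departed from this, with few genes measured there in C57 mice on the high-fat diet. Of the 12 largest rises 7 could be placed at week 8 and 4 were nearer the late mean (median -0.16). Of the 12 largest falls 5 could be placed and 2 were nearer it (median -0.18). In C57 mice on the low-fat diet all 12 rises and all 12 falls were measured at week 8. There the median of the rises was -0.40, against -0.37 at week 4 and 0.62 at week 7. That of the falls was -0.91, against 0.40 and -0.38.

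In the other 3 groups the shares of the same genes were also higher at week 5 than at week 4, as were those of all tested probes. On the low-fat diet in C57 mice the shares nearer the late mean were 32.5% of rises and 15.7% of falls at week 4, and 90.1% and 91.01% at week 5, against 39.5% and 59.6% of all tested probes at weeks 4 and 5. In A/J mice on the high-fat diet they were 13.0% and 5.35% at week 4, and 78.5% and 94.8% at week 5, against 31.4% and 69.8% of all tested probes, so that the rises stood only a little above these at week 5. In A/J mice on the low-fat diet they were 34.9% and 8.51%, and then 80.8% and 89.4%, against 45.2% and 63.5%. The median of the 12 largest rises in C57 mice on the high-fat diet was -1.63, -1.32 and -0.35 at weeks 1, 3 and 4, then 0.81, 0.97 and 0.58 at weeks 5, 6 and 7, and 0.89, 0.56 and 0.62 at weeks 9, 10 and 11. The median of the 12 largest falls was 0.83, 0.61 and 0.59 at weeks 1, 3 and 4, then -0.65, -0.64 and -0.38 at weeks 5, 6 and 7, and -0.63, -1.17 and -1.50 at weeks 9, 10 and 11. The part of the hybridisation batch in this step was not tested, since the labels give none. In C57 mice on the high-fat diet 4 of the 12 rises could be placed at week 0, with a median of -0.44. Of the 12 falls 8 could be placed, with a median of 0.18. Prnp and Odf2, with 9 arrays each at week 0, stood there at -0.87 and -0.10. Their late means were -0.84 and 0.24, and their early means -2.71 and -1.81.

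**Figure D2:**
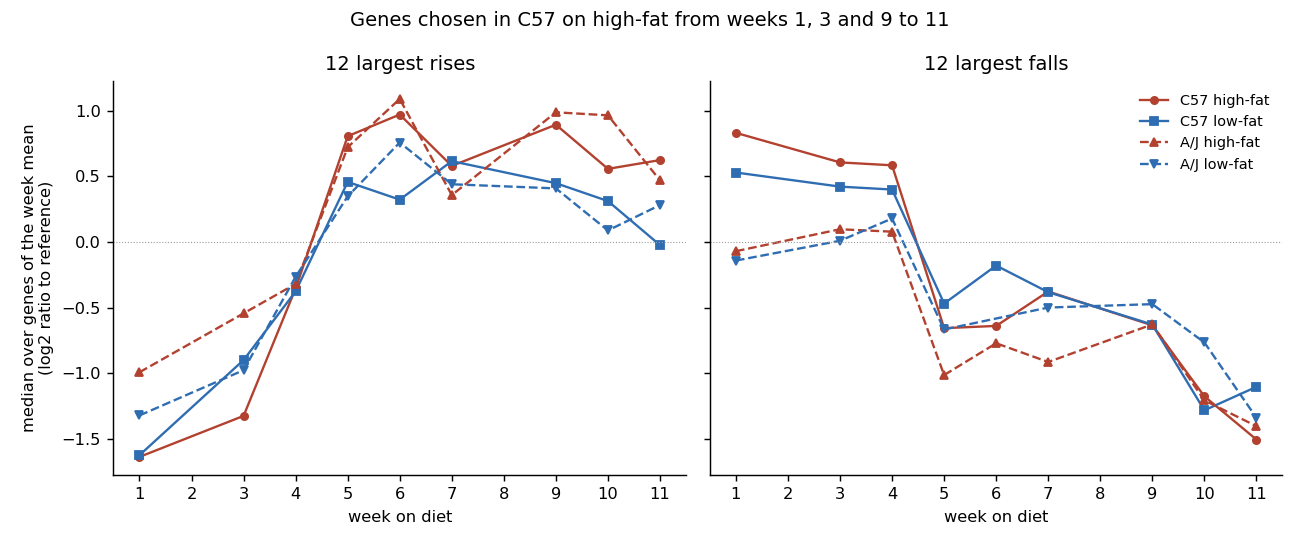
Median over genes of the week mean log2 ratio (y axis) by week on the diet (x axis), for the 12 largest rises (left) and the 12 largest falls (right), chosen in C57 mice on the high-fat diet from weeks 1, 3, 9, 10 and 11. Lines are C57 high-fat, C57 low-fat, A/J high-fat and A/J low-fat, drawn where at least 10 genes had 3 or more arrays, and week 8 is not drawn because 7 rises and 5 falls had that many in C57 mice on the high-fat diet. Week 0 is not drawn for any group. In that group the rises stand at -0.35 at week 4 and 0.81 at week 5, and the falls at 0.59 and -0.65. In C57 low-fat all 12 rises and 12 falls were measured at week 8, with medians of -0.40 and -0.91.

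The genes of fatty acid and triglyceride synthesis included 2 of 15 tested members that rose and none that fell, and the median difference of the list was 0.11, against -0.03 over all 8157 genes. Of all these genes 1.85% were called higher and 2.22% lower. Elovl5, which lengthens polyunsaturated fatty acids, was the larger. Its log2 ratio ran from -0.93 to 4.04 with a median of 1.67 in 23 late arrays, against -2.27 to 0.84 with a median of -0.23 in 19 early arrays. The groups overlapped, with 18 late arrays above all early ones. Its week means averaged 1.59 ± 0.57 late (SD, n = 3) and -0.38 ± 0.35 early (n = 2), a difference of 1.97 ± 0.34 (SE, limma adjusted p = 0.00702).

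Agpat2, an acyltransferase on the way to triglyceride, ran from -0.96 to 1.82 with a median of 0.74 in 25 late arrays, against -2.18 to 0.68 with a median of -0.08 in 20 early arrays. Its week means were 0.10, 0.82 and 0.86 late, against -0.24 and -0.03 early, so week 9 stood near the early weeks. The difference of 0.73 ± 0.20 was close to the threshold (limma adjusted p = 0.0495). In 10 of 17 alternative settings the gene did not pass, among them the fit without centring (limma adjusted p = 0.076).

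Scd1, the desaturase that makes oleic acid, ran from 0.07 to 2.94 with a median of 1.46 in 27 late arrays, against -1.13 to 1.56 with a median of 0.85 in 20 early arrays. Its difference of 0.77 ± 0.21 missed the threshold (limma adjusted p = 0.0527). Weeks 5 and 6, at 2.36 and 2.76, stood above every week of the comparison. Acaca, the carboxylase that commits acetyl-CoA to fatty acid synthesis, had a negative value (-0.79 ± 0.25, limma adjusted p = 0.0756), and 17 of 22 late arrays lay below all 19 early ones. Acaca passed after quantile normalization (-0.84, limma adjusted p = 0.0311), as did Scd1 (0.67, limma adjusted p = 0.0487). That normalization called 1160 probes in place of 351. Of the alternative settings Acaca passed in 4 of 16 and Scd1 in 5 of 17. The fatty acid synthase gene Fasn stood at -0.31, the desaturase genes Fads1 and Fads2 at 0.43 and 0.11, Acly at 0.04 and Dgat2 at -0.01.

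**Figure D3:**
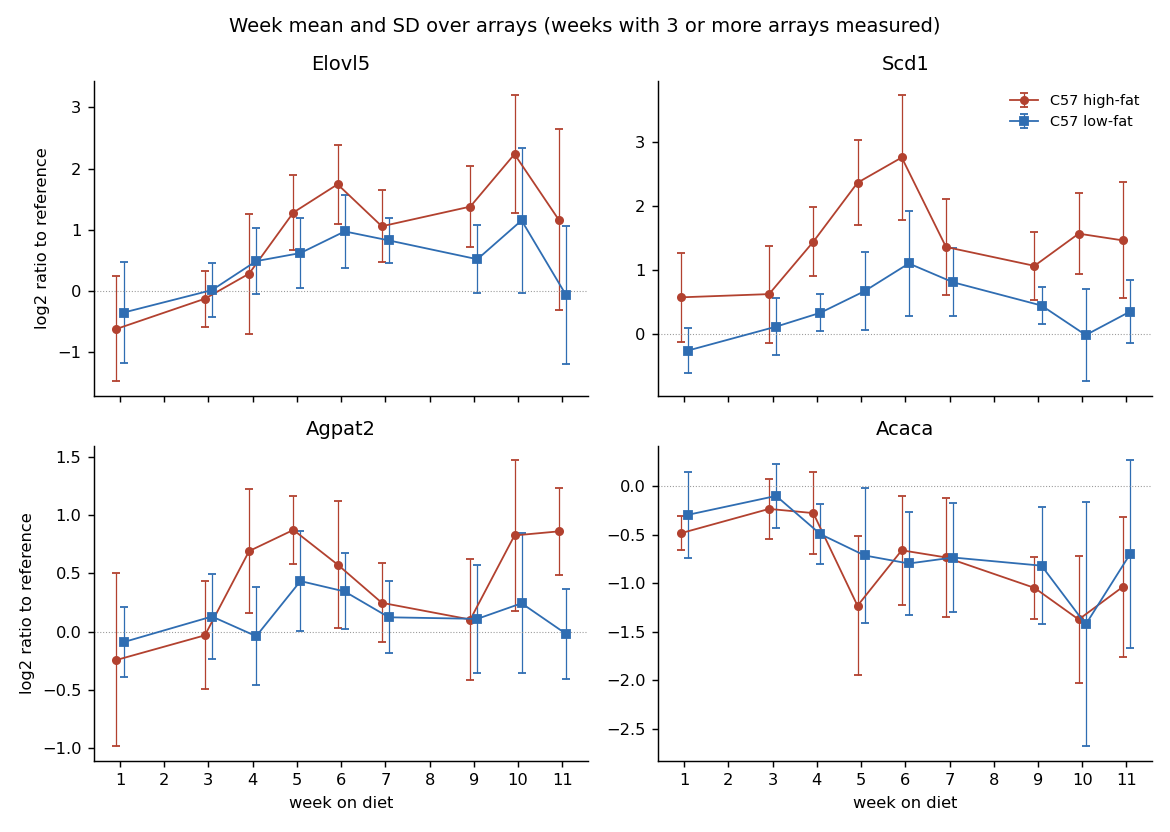
Week mean log2 ratio (y axis) with the SD over arrays by week on the diet (x axis) for 4 genes of fatty acid and triglyceride synthesis in C57 mice on the high-fat and the low-fat diet. Weeks with fewer than 3 measured arrays and weeks 0 and 8 are not drawn. On the high-fat diet Scd1 peaks at week 6 (2.76), while Elovl5 is highest at week 10 (2.24).

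Of 23 genes of fatty acid oxidation and ketogenesis 1 rose and 1 fell, beside 1.85% of all genes called higher and 2.22% lower. Positive values were found for 11 of them and negative values for 12. Acadm, the medium-chain acyl-CoA dehydrogenase gene, was higher (1.56 ± 0.41, limma adjusted p = 0.0441), and its short-chain relative Acads was lower (-1.14 ± 0.27, limma adjusted p = 0.0283). Acadm ran from -1.88 to 2.32 with a median of -0.98 in 19 late arrays, against -5.60 to -1.003 with a median of -2.07 in 18 early arrays. Its week 10 mean (0.05) stood apart from weeks 9 (-0.85) and 11 (-1.03). With week medians in place of means the difference was 1.10 (limma adjusted p = 0.119), and Acadm did not pass in 7 of 16 alternative settings. Acads ran from -4.00 to 0.07 with a median of -0.80 in 21 late arrays, against -0.27 to 0.67 with a median of 0.22 in 20 early arrays, and 12 late arrays lay below all early ones. Its week means were -0.32, -1.04 and -1.39 at weeks 9, 10 and 11, against 0.22 and 0.24 at weeks 1 and 3. Acads did not pass in 6 of 16 alternative settings, among them the fit without week 11 (-0.91, limma adjusted p = 0.0763).

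The nuclear receptor gene Ppara, an activator of fatty acid oxidation, had a value of 1.38 ± 0.44 that did not pass (limma adjusted p = 0.0799). It passed in 5 of 15 alternative settings. Among them were quantile normalization (limma adjusted p = 0.0216) and week medians (limma adjusted p = 0.0437), at 1.38 in both. Cyp4a14 (1.02), Ehhadh (0.22) and Cpt1a (-0.62), which are among the known targets of Ppara, did not pass either. Cpt1a is the carnitine transferase that lets fatty acids into mitochondria. Acadm, from the same list of oxidation genes, did pass, as given above. Cyp4a14 passed in 2 of 16 alternative settings, of which 1 was quantile normalization (1.04, limma adjusted p = 0.0378). None of 8 genes of lipid uptake, storage and lipolysis passed, with Cd36 at 0.51, Cidec at -0.35 and Lpl at -0.01.

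A few redox and conjugation genes were among the rises, beside 1.85% of all genes called higher. Of 12 genes of heat shock and oxidative stress, Txn1 and the peroxidase gene Prdx1 rose and none fell, though the list's median was -0.09. Prdx1 ran from -0.14 to 3.57 with a median of 0.26 in 27 late arrays, against -1.28 to -0.01 with a median of -0.44 in 19 early arrays, and 24 late arrays lay above all early ones (0.89 ± 0.20, limma adjusted p = 0.024). Of 28 genes of conjugation and glutathione metabolism, the glutathione transferase genes Gstm1 (0.86 ± 0.22) and Gstm3 (0.79 ± 0.21) rose and none fell, with limma adjusted p of 0.0419 and 0.0476. The list's median was 0.14. These 2 are close relatives whose probes may share signal. Both missed the threshold when each array was scaled to a common spread (0.74, limma adjusted p = 0.0557, and 0.64, limma adjusted p = 0.334). Gstm1 did not pass in 9 of 17 alternative settings and Gstm3 in 11 of 17.

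Ribosomal protein genes had mostly positive values. Of 41 tested, 4 rose, 1 fell and 29 were positive, beside 46.9% positive over all genes, with a median of 0.29 against -0.03 over all genes, and the median lay between 0.19 and 0.34 under the other scalings. Rpl9 rose by 1.63, Rpl3 by 1.04, Rps16 by 1.02 and Rps12 by 0.95, while Rpl21 fell by 0.75 (limma adjusted p from 0.0163 to 0.0386). Rpl9 had a value in only 9 early arrays, from -2.81 to -1.05, against 25 late arrays from -2.00 to 1.27. In Rpl3 only 4 of 27 late arrays, which ran from -0.75 to 1.13, lay above all 19 early ones, which ran from -1.88 to 0.91. Genes of this family have many pseudogene copies, so a probe may read more than its own gene. In the respiratory chain, 2 subunits of complex III moved in opposite directions among 49 genes, Uqcrq up (1.05 ± 0.25, limma adjusted p = 0.0283) and Uqcrb down (-0.69 ± 0.16, limma adjusted p = 0.0279), with a list median of 0.11. For both lists the shares over all genes were 1.85% called higher and 2.22% called lower.

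**Figure D4:**
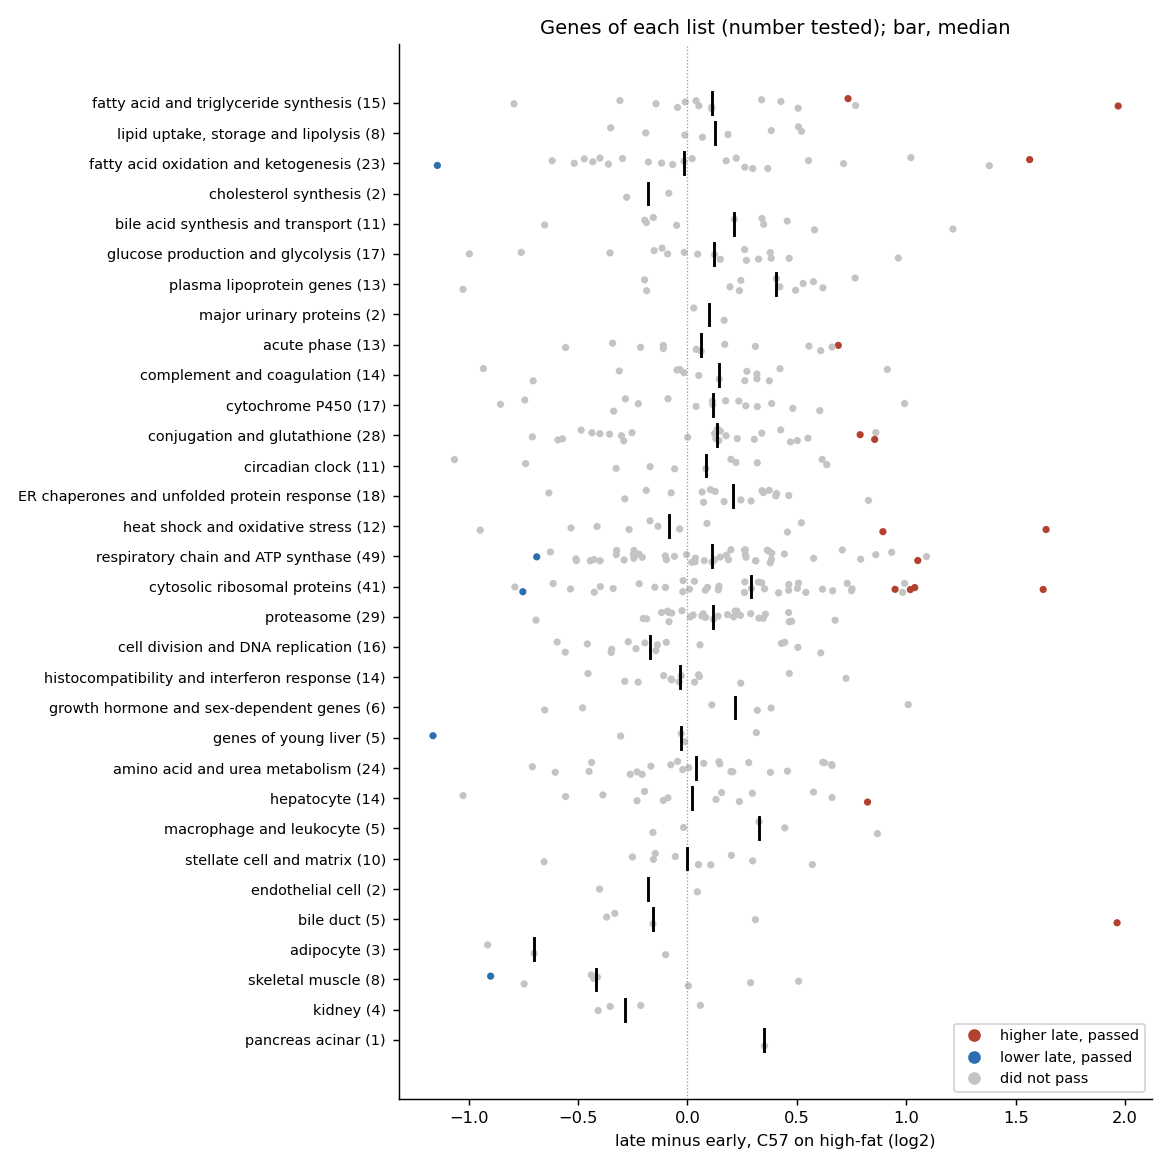
Late minus early log2 difference in C57 mice on the high-fat diet (x axis) of each tested gene, by list (y axis, with the number of genes tested). Red points passed the threshold as higher, blue as lower, grey did not pass, and the bar is the list median. Ribosomal protein genes have a median of 0.29 and adipocyte markers one of -0.70.

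Among 5 tested genes of young liver only Gpc3, a surface proteoglycan abundant in fetal liver, passed, beside 2.22% of all genes called lower. It ran from -2.52 to 0.21 with a median of -0.63 in 28 late arrays, against -0.12 to 0.81 with a median of 0.36 in 19 early arrays. The groups barely overlapped, with 25 late arrays below all early ones, and the difference was -1.16 ± 0.22 (limma adjusted p = 0.0115). Its week means were -0.02 at week 0 (10 arrays), 0.37 at week 1, 0.38 at week 3, 0.16 at week 4 and -0.73 at week 5. Week 0 thus stood below weeks 1 and 3. Over the 5 tested genes of young liver the median difference was -0.03, the same as over all genes. None of 16 genes of cell division and DNA replication passed, 11 of them negative, with a median of -0.17.

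Among genes of plasma proteins 2 passed. Of 14 hepatocyte markers Ttr alone rose and none fell, and of 13 acute phase genes Itih3 alone rose. Over all genes the share called higher was 1.85%. Ttr, the carrier of thyroid hormone and retinol-binding protein, ran from -0.60 to 2.80 with a median of 1.82 in 28 late arrays, against -0.14 to 1.40 with a median of 0.77 in 20 early arrays (0.82 ± 0.19, limma adjusted p = 0.0283). After quantile normalization Ttr stood at 0.70 and did not pass (limma adjusted p = 0.095), and it missed the threshold in 7 of 17 alternative settings in all. Itih3, of a heavy chain of the inter-alpha inhibitors, had a difference of 0.69 ± 0.19 (limma adjusted p = 0.0487). It did not pass in 11 of 17 alternative settings, among them the fit without centring (0.59, limma adjusted p = 0.070). With ratios at or below 0 set to the lowest positive ratio Itih3 stood at 0.39 (limma adjusted p = 0.359). The apolipoprotein gene Apoe had a value of -1.03 ± 0.42 that did not pass (limma adjusted p = 0.17). It passed in 4 of 17 alternative settings, among them quantile normalization (-1.49, limma adjusted p = 0.0038). Alb stood at 0.13, Mup3 at 0.17, Saa2 at 0.06, Apoa4 at 0.19 and Igfbp1 at -0.12, with adjusted p of 0.62 or more. The signs of Saa2, Mup3, Apoa4 and Igfbp1, and that of Lpl above, changed under other processing.

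In 15 pathway lists with 202 tested members no member passed in limma, and 32 (15.8%) had an unadjusted p under 0.05, against 21.7% of all genes tested. The 15 lists were picked for having no call. These were the genes of lipid uptake, cholesterol, bile acids, glucose, lipoproteins, major urinary proteins, complement and coagulation, cytochrome P450, the clock, the endoplasmic reticulum, the proteasome, cell division, histocompatibility, growth hormone and sex dependence, and amino acids. Their medians ran from -0.18 in 2 cholesterol genes to 0.41 in 13 lipoprotein genes. Cyp7a1, Pck1 and Srebf1 had too few measured arrays for a test.

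The tissue label was checked against its markers. Over the 14 hepatocyte markers the median log2 ratio of an array ran from 0.11 to 1.47 late, against 0.34 to 1.14 early, above 0 in every array. The adipocyte markers had negative values in 3 of 3 cases (median -0.70, none passed), and their median in an array ran from -2.79 to 0.27 late, against -2.16 to 0.85 early. The muscle marker Mb fell by 0.90 (limma adjusted p = 0.0186) as the only one of 8, whose list median was -0.42, and kidney markers had a median of -0.28 with none of 4 passing. These 3 tissues are also in the reference pool. Macrophage and leukocyte markers had a median of 0.33 (0 of 5 passed) and stellate cell and matrix markers one of 0.00 (0 of 10). Bile duct markers had a median of -0.16, with Krt8 the 1 of 5 that passed. Beside these counts, 1.85% of all genes were called higher and 2.22% lower. The part of other cell types in the differences was not tested, and no red blood cell marker could be tested.

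Technical values differed between weeks more than between late and early. The median number of measured probes per array was 13093, 10230 and 10551 at weeks 9, 10 and 11, against 11403 and 12092 at weeks 1 and 3. The median absolute deviation of an array's log2 ratios had medians of 0.426, 0.791 and 0.871, against 0.780 and 0.527. The 48 arrays correlated with the median profile of all arrays by 0.50 to 0.77, and 1 array of week 11 stood apart from the others of its week (0.52, the next at 0.642). The count of called probes was 832 with each array scaled to a common spread and 1160 after quantile normalization. Without centring 97 probes were higher and 411 lower, and with centring on all measured probes 135 and 335, as these scalings moved the median difference to -0.12 and -0.10.

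The low-fat diet was the control for the diet. On it, 54 of 8812 probes (0.613%) passed for late minus early in C57 mice. Of the called probes of the high-fat diet that were tested on both diets, all 154 rises had positive and all 191 falls negative values on the low-fat diet. They had been called with a spread estimated over both diets, and the sign was the same for 81.4% of all 8317 probes tested in both. Across these probes the late minus early values of the diets correlated with a Pearson r of 0.838, as a description, since both share their weeks, the reference pool and the array. The correlation was 0.780 with A/J mice on the high-fat diet (8195 probes) and 0.767 with A/J mice on the low-fat diet (7882 probes). In A/J mice on the high-fat diet 297 of 8693 probes (3.42%) passed and in A/J mice on the low-fat diet 281 of 8153 (3.45%). Of the called rises 152 of 158 were positive and of the called falls 183 of 183 were negative in A/J mice on the high-fat diet. The sign was the same for 79.1% of all 8195 probes tested in both, and the spread behind the calls included the A/J week means.

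The difference between the diets in late minus early was past the threshold for 0 of 8708 probes in limma, and 36 had p under 0.05 before adjustment. Taken as weekly differences between the diets, with the week as a block, it was 0 as well, with 238. The difference between the strains on the high-fat diet was past the threshold for 0 of 8626 probes in limma, and before adjustment p was under 0.05 for 152, or for 569 with the week as a block, where 0 passed as well.

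Among the named genes Elovl5, Prr23a3 and Agpat2 had a difference between the diets at an unadjusted limma p under 0.05. With the week as a block, so did Krt8 (0.0083), Odf2 (0.0154) and Tmem177 (0.0234). Most named genes were chosen by their values on the high-fat diet. That choice alone widens their difference between the diets, so these p-values are a description and no test. Elovl5 rose by 1.97 on the high-fat diet and stood at 0.71 ± 0.34 on the low-fat diet, a difference of 1.26 ± 0.49 (unadjusted limma p = 0.0191, adjusted p = 1.00). With the week as a block its unadjusted limma p was 0.000227 and its adjusted p 0.998. The weekly means of Elovl5 on the high-fat diet were 1.38, 2.24 and 1.16 at weeks 9, 10 and 11, against 0.52, 1.15 and -0.06 on the low-fat diet. At weeks 1 and 3 they were -0.62 and -0.13 on the high-fat diet, against -0.35 and 0.01 on the low-fat diet. Prr23a3 stood at 2.70 and 1.31, and Agpat2 at 0.73 and 0.09, on the high-fat and the low-fat diet. Gpc3 (-1.16 and -1.14), Ttr (0.82 and 0.87), Txn1 (1.64 and 1.73) and Acads (-1.14 and -1.05) had values within 0.10 of each other on the high-fat and the low-fat diet.

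Between the strains on the high-fat diet, Prnp and Odf2 had the smallest p among the named genes in the fit without the week as a block. The choice of most named genes by their values in C57 mice on the high-fat diet widens these differences as well. Prnp stood at 1.87 in C57 mice and -0.19 in A/J mice, a difference of 2.06 (unadjusted limma p = 0.00371, adjusted p = 1.00). Odf2 stood at 2.05 in C57 mice and 0.52 in A/J mice (unadjusted limma p = 0.00599). With the week as a block the smallest were those of 3110040N11Rik (0.00101) and Camsap2 (0.00107), with Odf2 at 0.00141 and Prnp at 0.00153, all unadjusted limma p with an adjusted p of 0.724. Elovl5 was past the threshold in both strains, with 1.97 in C57 mice and 1.54 in A/J mice on the high-fat diet (limma adjusted p = 0.0321 in A/J).

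**Figure D5:**
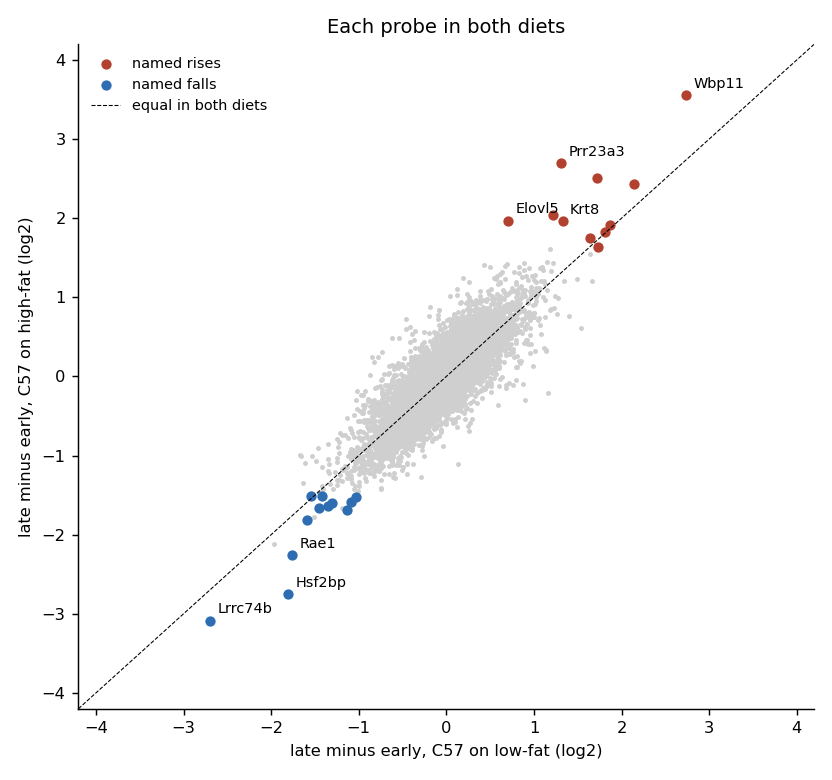
Late minus early log2 difference of each probe in C57 mice on the high-fat diet (y axis) against the low-fat diet (x axis), with the line of equal values dashed. Red points are the named rises and blue points the named falls, which were chosen on the y axis and so lie farther from 0 on it. For the high-fat diet Wbp11 stands at 3.55, against 2.73 for low-fat, and Elovl5 at 1.97, against 0.71.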

How the data were processed

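The data are 2-colour spotted arrays of mouse liver. The authors deposited 1 value per probe and array, a linear ratio of liver (Cy5) over reference (Cy3), per the labels' dyes. From the values, its mean is 1 on every array and 0.251% of measured values are below 0. Image analysis, background and normalization are not given in the sources used here, so signal over background is unknown and the number of arrays limits precision.

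Positive ratios were taken to log2 with no pseudocount, values at or below 0 were treated as missing, and each array was centred on its median over the tested probes. A probe was tested with 1 gene symbol and values on 70% of the 48 arrays and on 3 arrays of each of the 5 week groups. Symbols came from the platform annotation (14711 probes with 1, 6 with several, 2563 with none), and 14416 were updated by Entrez identifier to GRCm38.p6. A gene with several probes is given by the one measured on most arrays. In A/J high-fat, 2 pairs of identical columns were counted once each.

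Week means of both strains and diets were fitted in limma 3.58.1 (R 4.3.3), with strain, diet and period as groups, at an adjusted p under 0.05. The code was tested on simulated data. Named are the 12 largest rises and falls with non-overlapping week means, up to 3 called members per list and 26 genes whatever their p, of which 19 were tested. The members and lists were chosen with earlier results of these data known. Alternatives were normalization, filters, week medians, leaving out weeks, single arrays and blocks.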

Additional observations from a re-analysis of the deposited data

Results flagged for a closer look

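Within the week groups of C57 mice on the high-fat diet, 13 of 134 examined sets of 4 to 10 arrays held 1 array far from the others, where chance gives about 1 in 20. Among the rises, single arrays stood apart in Wbp11 at week 11 (2.63, the next at 1.62), Zfp131 at week 9 (0.44, the next at 1.23) and week 3 (2.31, the next at -0.86), Odf2 at week 9 (0.75, the next at 0.15) and week 3 (-4.69, the next at -1.86), Lgmn at week 3 (-3.61, the next at -1.91) and Prnp at week 10 (-0.19, the next at -1.15). Among the falls they stood apart in Scn10a at week 9 (-0.095, the next at -0.59) and week 1 (1.42, the next at 0.66), Rae1 at week 1 (-0.31, the next at 1.28), Serpinb7 at week 1 (3.18, the next at 1.81) and Cbln1 at week 3 (-0.62, the next at 0.26). One array of week 11 had the lowest correlation of its week with the median profile (0.52, the next at 0.642).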

How the results depend on the processing

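The count of 351 probes moved by more than 1.5 times under several settings. It was 1160 after quantile normalization, 832 with each array scaled to a common spread (added after the data had been seen), 5 with the week means of C57 high-fat alone, 2917 with single arrays as replicates and 1411 with the week as a random block, where arrays of a week correlated by 0.0924. Leaving out 1 week gave 0 to 574. The other 7 settings gave 273 to 508. The count of 0 for the difference between the diets stayed at 0 in every alternative run, leaving out weeks included. For the strains it was 0 in all but 1: with a replicate block on the sample number 12 probes passed, Prnp among them (1.88, adjusted p = 0.00229), while for the diets the replicate block gave 0, with 414 at an unadjusted p under 0.05. The labels do not say whether the numbers pair the arrays. Only 12 of 48 same-numbered pairs across diets and 14 of 47 across strains correlated over 0.1. Among arrays of the same week 7 and 6 correlated best with their own number, a count that numbers falling in different weeks could not enter. Such low correlations of noisy values cannot decide whether there is a pairing. The 39 named genes that passed kept their sign in all 626 alternative values and their side of the threshold in 444. Of 18 that did not pass, 22 of 300 values passed and 20 changed sign. These were, without centring, Saa2 (-0.040), and after quantile normalization Saa2 (-0.028), Lpl (0.142) and Mup3 (-0.154). With week medians and with the stricter filter Lpl stood at 0.051 and 0.048, and with ratios at or below 0 set to the lowest positive ratio Apoa4 stood at -0.051. With centring on all measured probes, also added later, Saa2 stood at -0.015, and with scaled arrays Saa2 and Lpl stood at -0.039 and 0.375. With 1 week left out, Saa2 ran from -0.072 to 0.218, Lpl from -0.672 to 0.492, Apoa4 from -0.034 to 0.442, Igfbp1 from -0.298 to 0.086 and Igfbp2 from -0.331 to 0.049. The cause was not tested.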
